A study of Homo sapiens with 16 samples.

Results

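Levels of 9 chemokine genes were followed in 2 human pancreatic ductal adenocarcinoma cell lines treated with gemcitabine: the CC chemokines CCL2, CCL5, CCL20, CCL22 and CCL28, the interferon-induced CXC chemokines CXCL10 and CXCL11, and the membrane-anchored chemokines CXCL16 and CX3CL1. They were chosen by name, and 9 of 9 were found once each among the 58735 genes of the deposited tables. Poly-A-enriched RNA was sequenced from BxPC3 and PANC-1, with 4 libraries in each of 4 groups: BxPC3 with gemcitabine, BxPC3 control, PANC-1 with gemcitabine and PANC-1 control. Gemcitabine is a deoxycytidine analogue that blocks DNA synthesis once it has been phosphorylated in the cell. The labels name neither dose nor time of treatment nor separate cultures, so the p-values rest on library-to-library spread, part or all of which may be technical.

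Chemokines are small secreted proteins that draw leukocytes along a gradient through receptors coupled to G proteins. They are classed by the spacing of the first cysteines of the mature protein. CCL2 acts through CCR2 on monocytes, CCL5 through receptors that include CCR1 and CCR3 on T cells and monocytes, CCL20 through CCR6, CCL22 through CCR4 on regulatory T cells, and CCL28 through CCR10 and CCR3 at mucosal surfaces. CXCL10 and CXCL11 act through CXCR3 on activated T cells and natural killer cells and are classical targets of interferons. CXCL16 and CX3CL1 are made as transmembrane proteins with a chemokine domain on a stalk, bind CXCR6 and CX3CR1, and are shed by the proteases ADAM10 and ADAM17. NF-kB, a family of transcription factors activated by inflammatory signals and by DNA damage, drives many of these genes.

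The cysteine spacing that defines the classes is shown by 30 bases of each coding sequence, taken from the longest coding transcript of GENCODE 29 (GRCh38) and read 5′ to 3′. Capitals mark the first pair of cysteine codons with the spacing of the gene's class. The start of each coding sequence was left out of the search, so cysteine codons there are not marked. The spacing was set by class beforehand, and the windows only illustrate it. The 5 CC genes have no residue between the marked codons, CXCL10, CXCL11 and CXCL16 have 1, and CX3CL1 has 3.
CCL2: ccagtcaccTGCTGTtataacttcaccaat
CCL5: accacacccTGCTGCtttgcctacattgcc
CCL20: aactttgacTGCTGTcttggatacacagac
CCL22: gacagcgtcTGCTGCcgtgattacgtccgt
CCL28: gcctccagcTGTTGCacggaggtttcacat
CXCL10: actgtacgcTGTaccTGCatcagcattagt
CXCL11: agaggacgcTGTcttTGCataggccctggg
CXCL16: actggaagtTGTtatTGTggtaaaagaatt
CX3CL1: gtgacgaaaTGCaacatcacgTGCagcaag
The first of these codons is codon 34 of 99 in CCL2, codon 30 of 98 in CXCL10, codon 57 of 273 in CXCL16 and codon 38 of 403 in CX3CL1, which sets the long membrane-anchored proteins apart from the short secreted ones.

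Depth, worked back from FPKM (fragments scaled to gene length and to library size), was 22152034 to 37777222 reads per library. A count of 3 reads on a 1 kb transcript corresponded to 0.0803 to 0.138 FPKM. The first gemcitabine replicate of PANC-1 stood apart. Set against the mean of the other 3 libraries of its group, its values were shifted by a median of 0.452 (log2) for tested genes with at least 56.7% GC and by -0.423 for those with at most 42.1% GC, while the shifts of the other 7 PANC-1 libraries lay between -0.17 and 0.152. In PANC-1 the changes of CCL2, CCL28, CX3CL1 and the named list genes that passed the test are therefore given with and without it. Counts of calls over lists are too, while the differences between lines include it unless stated. Summed over 6 epithelial markers, FPKM was 2672 to 3101 with gemcitabine and 2826 to 3297 in control BxPC3, and 551 to 758 with gemcitabine and 337 to 369 in control PANC-1. In BxPC3 KRT19 carried that sum, at a mean of 1327 FPKM with gemcitabine and 1841 FPKM in control, while the means of the other 5 were higher with gemcitabine. In PANC-1 the epithelial marker CDH1 was low, at a mean of 0.551 FPKM with gemcitabine and 0.921 FPKM in control. KRT7 was low as well but higher with gemcitabine, at 1.17 FPKM against 0.530 FPKM in control. The means of KRT8, KRT18 and KRT19 were also higher there, KRT19 at 226.6 FPKM with gemcitabine and 93.4 FPKM in control. EPCAM averaged 17.1 FPKM with gemcitabine and 17.5 FPKM in control PANC-1. Leukocyte markers were near 0 in both lines apart from CD14, and the highest FPKM of PTPRC, carried by nearly all leukocytes, was 0.0271. CD14 averaged 7.23 FPKM with gemcitabine and 6.97 FPKM in control BxPC3, and 2.65 FPKM with gemcitabine and 1.06 FPKM in control PANC-1. Of 4 endothelial markers in BxPC3, CDH5 averaged 5.76 FPKM with gemcitabine and 0.603 FPKM in control, PECAM1 averaged 0.132 FPKM with gemcitabine and 0.756 FPKM in control, and VWF and CLDN5 were at most 0.151 FPKM in either group. In PANC-1 the 4 summed to at most 0.112 FPKM. Summed over 6 fibroblast markers, FPKM was 3.85 to 4.23 with gemcitabine and 6.46 to 7.18 in control BxPC3, and 8.19 to 11.7 with gemcitabine and 11.9 to 12.9 in control PANC-1. The collagens COL3A1 in BxPC3 and COL1A1 in PANC-1 made up most of the control sums, and DCN was near 0 in all groups. In BxPC3 COL3A1 averaged 1.31 FPKM with gemcitabine and 4.825 FPKM in control. COL1A1 went the other way there, at 2.42 FPKM with gemcitabine and 1.79 FPKM in control. The means of COL1A2 and LUM were also higher with gemcitabine in BxPC3, and PDGFRB was near 0. What these markers contribute to the chemokine results was not tested.

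In BxPC3 the chemokine genes were mostly higher with gemcitabine. CCL2, CCL5, CCL28, CXCL10 and CXCL11 were higher by 8.05-fold to 171.5-fold in mean FPKM, CCL20 and CXCL16 by 1.42-fold and 1.30-fold, and CCL22 was lower. Each line was tested with limma on log2(FPKM + 1), a scale that understates changes of low genes, over genes with at least 1 FPKM in at least 4 libraries. Of the 8 members that passed that filter 7 were higher and 1 was lower at an adjusted p under 0.05 (Benjamini-Hochberg), and CX3CL1 was too low to test. Over all 12215 genes tested 37.3% were called higher and 36.1% lower, so a call by itself was common in BxPC3. CCL2, CXCL10 and CXCL11 passed the filter only through the gemcitabine libraries and CCL22 only through the controls, so the counts are a description. In bulk RNA a change in the number of cells that express a gene and a change in RNA per cell cannot be told apart.

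**Figure D1:**
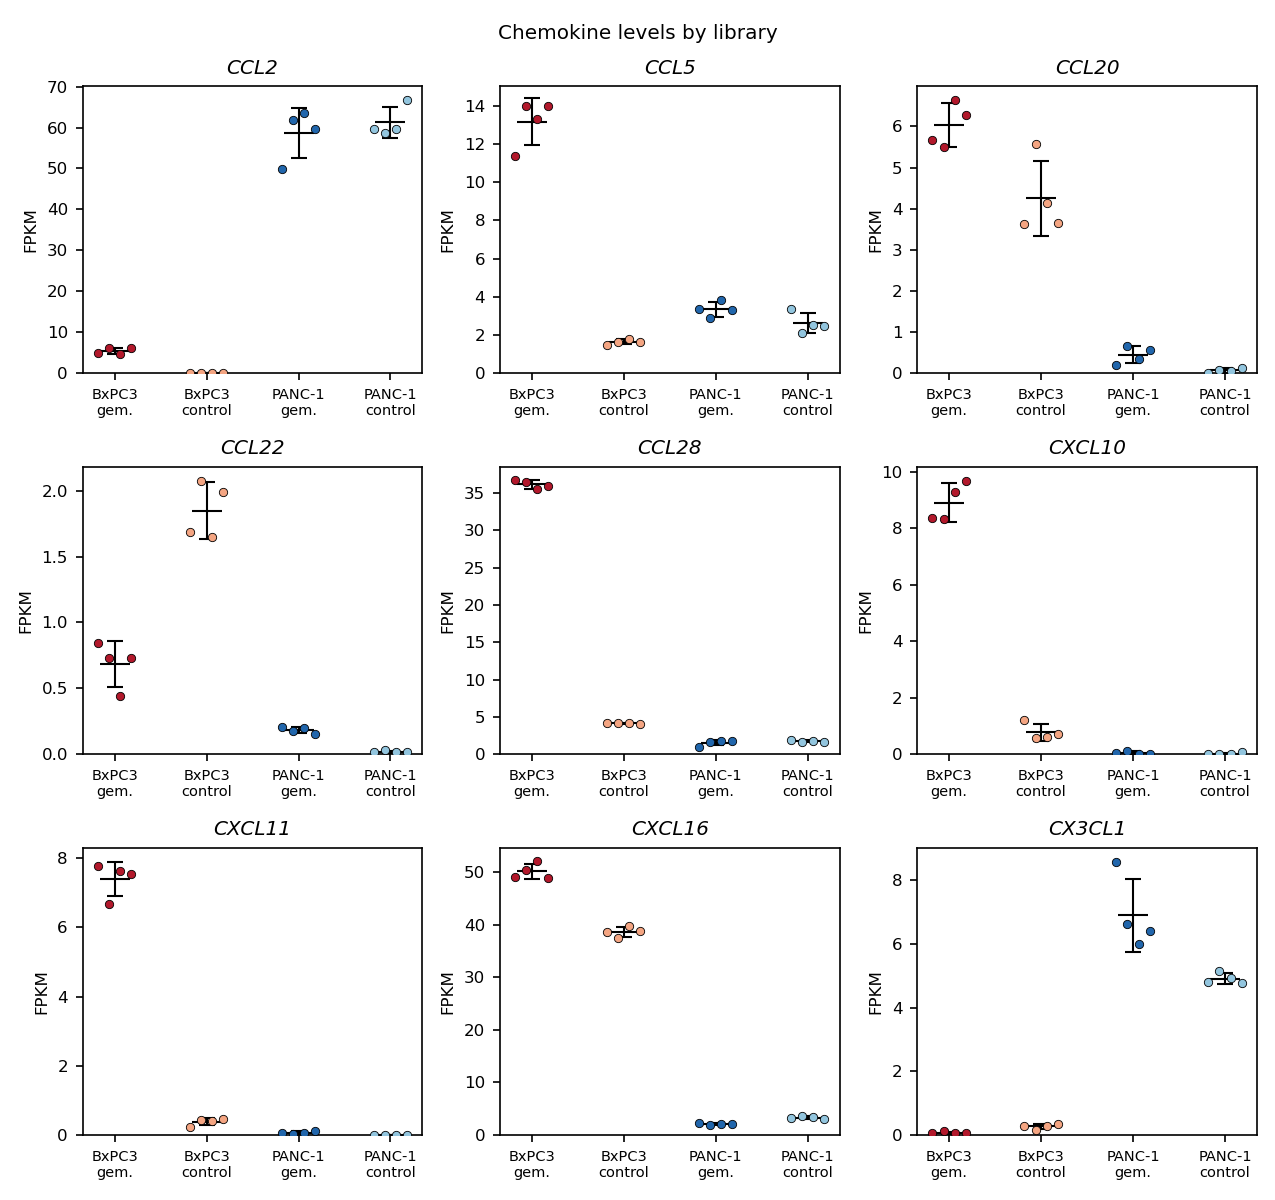
FPKM of the 9 chemokine genes in every library (points), with the mean and SD of each group of 4 (bars), gemcitabine left of control in BxPC3 (red) and PANC-1 (blue). In BxPC3 the gemcitabine libraries of CCL2, CCL5, CCL28, CXCL10, CXCL11 and CXCL16 all lie above the controls and those of CCL22 all lie below, while in PANC-1 CXCL16 lies below and CX3CL1 above the controls.

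CCL2 (ENSG00000108691, chr17:34255218-34257203, plus strand), the monocyte attractant also called MCP-1, had 4.99, 6.14, 4.73 and 6.07 FPKM in BxPC3 with gemcitabine. In BxPC3 controls it had 0.0720, 0, 0.01545 and 0.0404 FPKM. All 4 gemcitabine libraries were far above the controls, which together held 8 reads against 1452. The ratio of reads, scaled to library size, was 181.5 with a 95% counting interval of 91.9 to 421, and the log2 change was 2.64 ± 0.0765 (SE, adjusted p = 1.5e-09). Such intervals leave out all but counting error and treat PCR copies as separate molecules.

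CCL5 (ENSG00000271503, chr17:35871491-35880793, minus strand), the T cell attractant also called RANTES, had 11.4, 14, 13.3 and 14 FPKM in BxPC3 with gemcitabine, against 1.49, 1.60, 1.81 and 1.65 FPKM in controls. The groups did not overlap and each was narrow. The mean was 13.2 ± 1.23 FPKM with gemcitabine and 1.64 ± 0.131 FPKM in control (SD, n = 4 each), 8.05-fold higher with gemcitabine, with a log2 change of 2.42 ± 0.0671 (SE, adjusted p = 1.2e-09).

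CCL28 (ENSG00000151882, chr5:43376645-43412391, minus strand), a chemokine of mucosal epithelia, had 36.7, 36.5, 35.5 and 35.9 FPKM in BxPC3 with gemcitabine, against 4.12, 4.15, 4.13 and 4.01 FPKM in controls. It showed the tightest replicates of the family and no overlap. It was 8.82-fold higher with gemcitabine, and its log2 change of 2.87 ± 0.0307 (SE, adjusted p = 8.0e-12) was the largest of the 8 tested members on this scale. In fold of mean FPKM CCL2, CXCL11 and CXCL10 were above it. With gemcitabine it was the second most abundant of the 9 genes in BxPC3, after CXCL16.

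CCL20 (ENSG00000115009, chr2:227805739-227817564, plus strand), the ligand of CCR6, had 5.66, 5.51, 6.65 and 6.28 FPKM in BxPC3 with gemcitabine, against 3.63, 5.57, 4.14 and 3.66 FPKM in controls. The second control lay within the gemcitabine range, so the groups overlapped. The log2 change was 0.43 ± 0.108 (SE, adjusted p = 0.0046), and the adjusted p ranged up to 0.0243 over the alternatives.

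CCL22 (ENSG00000102962, chr16:57358772-57366190, plus strand), an attractant of regulatory T cells, had 0.846, 0.727, 0.437 and 0.728 FPKM in BxPC3 with gemcitabine, against 1.68, 2.08, 1.65 and 1.99 FPKM in controls. Every gemcitabine library was below every control. The log2 change was -0.76 ± 0.0845 (SE, adjusted p = 1.9e-05), and the mean was 2.70-fold higher in control. CCL17, the other ligand of CCR4, lies 38.6 kb from CCL22 on chromosome 16 with CX3CL1 between them, and it also fell in BxPC3, to 0.524 ± 0.0997 FPKM with gemcitabine, against 3.52 ± 0.626 FPKM in control (log2 change -1.56, adjusted p = 2.5e-07). Like CCL22, CCL17 passed the filter only through the controls.

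In the RefSeq table of promoters (GRCh38.p14, 250 bases before to 50 after a gene's start) 5 of the 9 genes were found, with 6 promoters. Those of CCL20, which was higher, and CCL22, which was lower with gemcitabine in BxPC3, each held a run that matches the kappaB motif GGGNNNNNCC, bound by NF-kB, on both strands. Distances are from the RefSeq start, which for CCL20 and CXCL11 lies inside the longer gene span of GENCODE 29 given here. The run lies 81 to 70 bases before the start in CCL20 (chr2:227813746-227813787, plus strand) and 187 to 176 bases before it in CCL22 (chr16:57358581-57358622, plus strand). The windows are shown because the genes moved in opposite directions, and capitals mark the overlapping matches.
CCL20: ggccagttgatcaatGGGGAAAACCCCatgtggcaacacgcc
CCL22: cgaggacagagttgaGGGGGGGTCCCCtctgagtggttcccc
This loose motif is present in 58.7% of the 35116 promoters of the table, so a match is common, and it is a description and not a binding site.

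CXCL10 (ENSG00000169245, chr4:76021117-76023497, minus strand), also called IP-10, had 8.35, 8.33, 9.27 and 9.68 FPKM in BxPC3 with gemcitabine, against 1.22, 0.564, 0.600 and 0.706 FPKM in controls. The lowest gemcitabine library was well above the highest control. It was 11.55-fold higher with gemcitabine in mean FPKM, with a log2 change of 2.50 ± 0.105 (SE, adjusted p = 1.8e-08).

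CXCL11 (ENSG00000169248, chr4:76033682-76041415, minus strand), also called I-TAC, lies 10.2 kb from CXCL10 with no protein-coding gene between. It had 7.78, 6.69, 7.62 and 7.54 FPKM in BxPC3 with gemcitabine, against 0.244, 0.423, 0.402 and 0.463 FPKM in controls. The groups were again apart, with 1870 reads against 99, a ratio of 18.9 (95% counting interval 15.4 to 23.4) and a log2 change of 2.60 ± 0.0641 (SE, adjusted p = 6.4e-10). Their neighbour CXCL9, the third ligand of CXCR3, stayed far below the filter with 20 reads with gemcitabine and 3 in control BxPC3.

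The promoters of CXCL10 and CXCL11 are shown since these neighbours moved together in BxPC3. They are given 5′ to 3′ from RefSeq (GRCh38.p14), at chr4:76023448-76023747 and chr4:76036021-76036320, both on the minus strand. Capitals mark matches on either strand to kappaB (GGGNNNNNCC), to the core of the interferon-stimulated response element (GAAA, any 2 bases and GAAA) and to AP-1 (TGANTCA).
CXCL10: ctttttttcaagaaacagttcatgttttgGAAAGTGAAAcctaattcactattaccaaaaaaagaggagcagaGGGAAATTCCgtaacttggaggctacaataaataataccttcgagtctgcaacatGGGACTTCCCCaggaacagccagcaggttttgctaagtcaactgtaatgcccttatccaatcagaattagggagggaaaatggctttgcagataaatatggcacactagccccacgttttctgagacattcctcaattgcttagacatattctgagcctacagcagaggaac
CXCL11: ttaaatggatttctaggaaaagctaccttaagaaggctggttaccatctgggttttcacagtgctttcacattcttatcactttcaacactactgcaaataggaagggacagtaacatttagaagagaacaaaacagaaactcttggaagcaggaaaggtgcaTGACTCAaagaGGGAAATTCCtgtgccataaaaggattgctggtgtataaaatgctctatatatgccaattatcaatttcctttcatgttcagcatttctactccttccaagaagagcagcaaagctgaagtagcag
CXCL10 holds the interferon core 221 to 212 bases before its start and kappaB matches at 177 to 168 and at 122 to 112 bases. CXCL11 holds an AP-1 match 87 to 81 bases and a kappaB match 76 to 67 bases before its start. The interferon core is present in 3.6% of the 35116 promoters and AP-1 in 7.7%. Both promoters hold the same 10 bases, gggaaattcc, which are present in 57 of the 35116 promoters, or 0.16%. These bases were picked because both promoters hold them, and the 57 include both. Any given run of 10 bases is rare in promoters of this length, so the share is a description.

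CXCL16 (ENSG00000161921, chr17:4733526-4739922, minus strand), the ligand of CXCR6, was the most abundant of the 9 genes in BxPC3. It had 49.2, 50.5, 52.1 and 48.9 FPKM with gemcitabine, against 38.7, 37.5, 39.8 and 38.8 FPKM in controls. The shift was small and did not overlap, with a log2 change of 0.37 ± 0.0356 (SE, adjusted p = 7.5e-06). CXCL16 shares 85 exonic bases with MED11 on the opposite strand, and whether reads were counted by strand is not given in the sources used here. MED11 held 736 reads with gemcitabine and 974 in control, against 18575 and 14336 for CXCL16.

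CX3CL1 (ENSG00000006210, chr16:57372458-57385048, plus strand), also called fractalkine, was below the filter in BxPC3. It held 13, 25, 13 and 10 reads with gemcitabine, against 48, 32, 58 and 79 reads in controls. Each gemcitabine library was below each control, and the ratio of summed reads was 0.281 (95% counting interval 0.208 to 0.375). With limma-voom on reads over all genes with a read, an alternative chosen after seeing the data, it was lower (log2 change -1.81, adjusted p = 0.00010), and with limma and no filter the adjusted p was 0.0101. CX3CL1 and its neighbours CCL22 and CCL17, which lie within 1 stretch of chromosome 16, were thus lower with gemcitabine in BxPC3, CX3CL1 only in the fits that include low genes.

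Without overlap between groups were 7 of the 8 tested members in BxPC3, where 67.5% of all tested genes did not overlap.

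In PANC-1 CX3CL1 was higher and CXCL16 lower with gemcitabine, and CCL2, CCL5 and CCL28 did not pass the test. CCL20, CCL22, CXCL10 and CXCL11 were too low for it, and the first, second and last of these were higher in the fits that include low genes. Of the 5 members tested 1 was higher and 1 lower, where 20.7% of all 12508 genes were called higher and 24.0% lower. Without overlap between groups were 2 of the 5, where 45.8% of all tested genes did not overlap. The median log2 change of the 5 was -0.0646, against -0.0244 over all genes tested. Without the first gemcitabine replicate the calls over all genes numbered 8728 instead of 5602, and the calls of the 5 members were as with it.

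**Figure D2:**
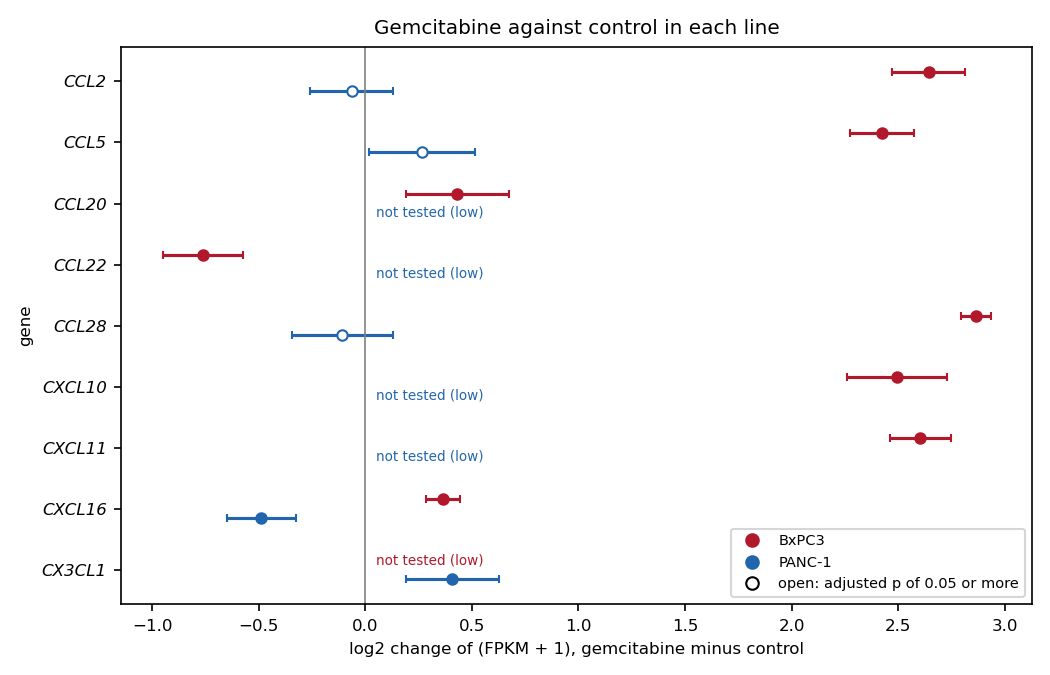
Log2 change of FPKM + 1, gemcitabine minus control, for each gene in BxPC3 (red) and PANC-1 (blue), with the 95% interval of the limma fit as bars. Open circles have an adjusted p of 0.05 or more, and members below the filter are marked as not tested. In BxPC3 7 genes lie right of 0 and CCL22 left of it, and in PANC-1 only CXCL16 and CX3CL1 are filled, on opposite sides.

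CCL2 was the most abundant of the 9 genes in PANC-1, with 49.8, 61.8, 63.6 and 59.6 FPKM with gemcitabine, against 59.8, 58.6, 59.8 and 66.8 FPKM in controls. The groups overlapped, the log2 change was -0.0646 with a 95% interval of -0.259 to 0.130, and the adjusted p was 0.577. Without the first gemcitabine replicate, the lowest of its group, the change was 0.0110 (interval -0.0918 to 0.114).

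CCL5 had 3.38, 2.87, 3.81 and 3.29 FPKM in PANC-1 with gemcitabine, against 3.38, 2.12, 2.53 and 2.47 FPKM in controls. The groups overlapped through the first control alone, and the log2 change of 0.27 (95% interval 0.0165 to 0.516) did not pass (adjusted p = 0.0792). Leaving out that control gave 0.36 and an adjusted p of 0.0160, and over all alternatives the adjusted p ranged from 0.0160 to 0.198.

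CCL28 had 1.01, 1.68, 1.74 and 1.72 FPKM in PANC-1 with gemcitabine, against 1.88, 1.65, 1.74 and 1.60 FPKM in controls. The first gemcitabine replicate lay below the other 7 libraries, which overlapped. The log2 change was -0.11 (95% interval -0.345 to 0.130, adjusted p = 0.441) and 0.00121 without that replicate (interval -0.117 to 0.120).

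CXCL16 had 2.37, 1.82, 2.13 and 2.02 FPKM in PANC-1 with gemcitabine, against 3.20, 3.60, 3.45 and 3.06 FPKM in controls. No library of one group reached the other. It fell by 0.49 on the log2 scale (SE 0.0716, adjusted p = 0.00055), to 2.09 ± 0.229 FPKM with gemcitabine, against 3.33 ± 0.239 FPKM in control (SD, n = 4 each). MED11, which overlaps it, held 608 reads with gemcitabine and 704 in control, against 627 and 917 for CXCL16. How many of these reads fall in the shared 85 bases was not tested.

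CX3CL1 had 8.59, 6.63, 6.002 and 6.40 FPKM in PANC-1 with gemcitabine, against 4.80, 5.15, 4.95 and 4.77 FPKM in controls. All gemcitabine libraries were above the controls, the first by the most. The log2 change was 0.41 ± 0.0963 (SE, adjusted p = 0.0079), and 0.31 without the first gemcitabine replicate (interval 0.213 to 0.410).

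The 5 members tested in PANC-1 also differed in how far the first gemcitabine replicate lay from the others. CX3CL1, with a GC content of 55.4%, was 0.386 (log2) above the mean of the other 3 gemcitabine libraries, and CXCL16 (56.0%) was 0.174 above. CCL5 (53.3%) was 0.0243 above it. CCL2 (42.6%) was 0.302 below that mean and CCL28 (40.2%) was 0.435 below.

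**Figure D3:**
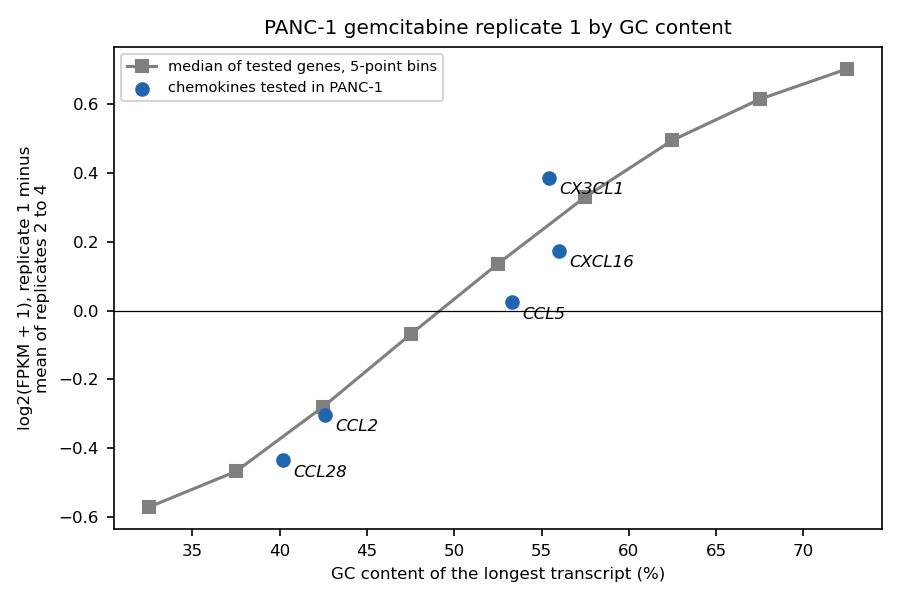
Difference between PANC-1 gemcitabine replicate 1 and the mean of replicates 2 to 4 in log2(FPKM + 1), against the GC content of the longest transcript in percent. Squares are medians of tested genes in bins of GC content and circles are the 5 chemokine genes tested in PANC-1. The medians climb with GC content, and CCL2 and CCL28 lie below 0 while CX3CL1 and CXCL16 lie above it.

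The 4 members below the filter in PANC-1 were still counted in reads. CCL20 held 7, 31, 14 and 29 reads with gemcitabine, against 0, 3, 2 and 5 reads in controls. CCL22 held 13, 15, 15 and 14 reads with gemcitabine, against 1, 2, 1 and 1 in controls. CXCL11 held 3, 2, 3 and 7 reads with gemcitabine and none in any control.

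In these 3 genes every gemcitabine library was above every control. Scaled to library size, the ratio of summed reads was 7.35 for CCL20 (95% counting interval 3.80 to 15.9) and 10.3 for CCL22 (4.18 to 33.1). CXCL11 was at least 4.54-fold higher with gemcitabine, against the floor of 3 reads over the 4 controls, and the 95% counting interval of its ratio starts at 3.26. With limma-voom over all genes with a read, added after seeing the data, the adjusted p was 0.0053 for CCL20, 0.00012 for CCL22 and 0.00028 for CXCL11, and with limma and no filter it was 0.0241, 0.0018 and 0.0145. The levels were low, at a mean of 0.444 FPKM for CCL20, 0.182 FPKM for CCL22 and 0.0710 FPKM for CXCL11 with gemcitabine.

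CXCL10 could not be judged in PANC-1. It held 1, 4, 0 and 0 reads with gemcitabine, against 0, 0, 0 and 2 reads in controls. The groups overlapped, the ratio of 2.27 had a counting interval of 0.371 to 23.8, and a change was not detectable at this depth (limma-voom adjusted p = 0.703, limma with no filter 0.636).

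**Figure D4:**
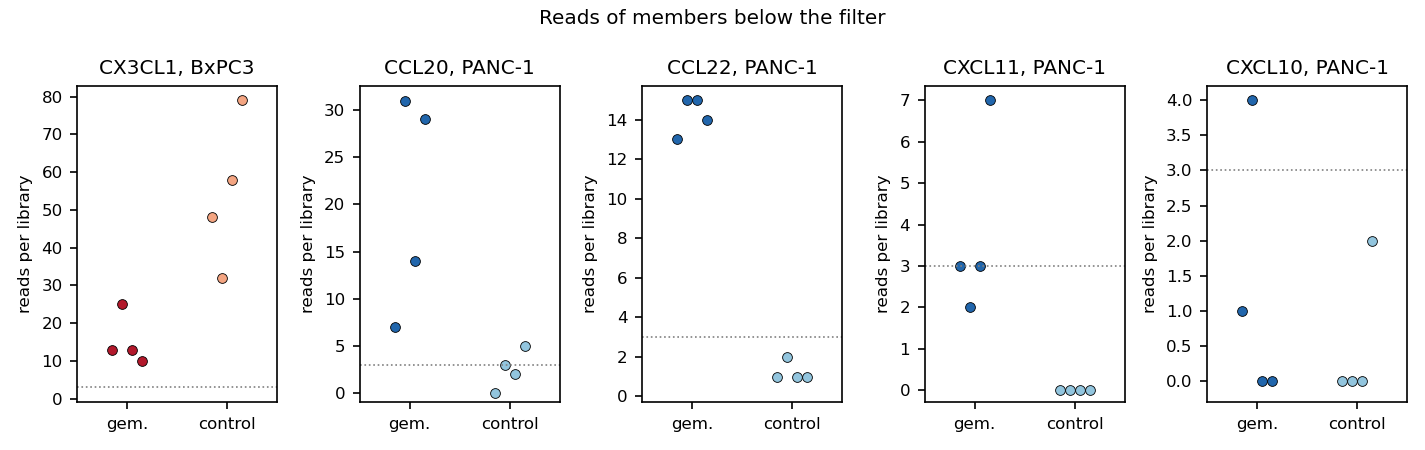
Reads per library of the 5 members below the filter, gemcitabine left of control, with a dotted line at 3 reads. CX3CL1 is lower with gemcitabine in BxPC3, CCL20, CCL22 and CXCL11 are higher in PANC-1, and CXCL10 overlaps, with at most 4 reads in a library.

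The difference in the effect of gemcitabine between the lines passed the test for 8 of the 9 genes. For CXCL10 and CXCL11 the PANC-1 side rests on very few reads, and log2(FPKM + 1) holds it near 0. Both passed the filter over the 16 libraries only through BxPC3 with gemcitabine, and CCL22 only through the BxPC3 controls. The counts are thus a description. The test was the interaction over all 16 libraries, the effect in BxPC3 minus that in PANC-1, and it was above 0 for 6 members and below 0 for 2, where 26.6% of all 14134 genes were called above 0 and 25.2% below. The difference was 2.97 ± 0.112 for CCL28 (log2, SE, adjusted p = 4.1e-12), 2.71 ± 0.118 for CCL2 (adjusted p = 2.4e-11), 2.16 ± 0.134 for CCL5 and 0.85 ± 0.0793 for CXCL16. CXCL16 was called in both lines, higher with gemcitabine in BxPC3 and lower in PANC-1.

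CXCL10 and CXCL11 differed by 2.47 ± 0.126 and 2.51 ± 0.0771 (log2, SE). For these genes the effect in PANC-1 rests on 15 reads or fewer per group, and with limma-voom on reads the difference of CXCL11 was 1.41 (adjusted p = 0.0534), where the other alternatives ranged up to 3.23. CCL22 and CX3CL1 differed the other way, by -0.98 ± 0.0958 and -0.65 ± 0.111. Both were lower in BxPC3 and higher in PANC-1, CX3CL1 in BxPC3 and CCL22 in PANC-1 only in the fits that include low genes.

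For CCL20 the difference was 0.0015 with a 95% interval of -0.335 to 0.338 (adjusted p = 0.995). This value depends on how low levels are treated: with a pseudocount of 0.1 it was -1.19 (adjusted p = 0.0163) and with limma-voom on reads -2.44 (adjusted p = 0.0069), with the effect in PANC-1 then the larger one.

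The order of the levels also differed, though levels of the lines come from tables scaled separately and were not tested against each other. CCL2 stood highest in PANC-1, at 58.7 ± 6.15 FPKM with gemcitabine and 61.3 ± 3.76 FPKM in control (SD, n = 4 each), which overlap, then in BxPC3 with gemcitabine, and was near 0 in BxPC3 controls. CX3CL1 likewise was highest in PANC-1. CCL5 was highest in BxPC3 with gemcitabine, followed by the 2 PANC-1 groups, which overlap, and by BxPC3 controls. CCL20, CCL22, CCL28, CXCL10, CXCL11 and CXCL16 were higher in each BxPC3 group than in either PANC-1 group.

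Genes of the same pathways were read from lists. Of 19 other CC chemokines only CCL17 passed the filter, in BxPC3. Of 7 other CXC and C chemokines CXCL17 and CXCL14 were tested and both fell in BxPC3. CXCL17, a mucosal chemokine, averaged 20.8 ± 1.502 FPKM with gemcitabine and 76.6 ± 2.29 FPKM in control (log2 change -1.84, adjusted p = 1.2e-09). CXCL14, which is made by many epithelia, averaged 3.46 ± 0.377 FPKM with gemcitabine and 8.75 ± 0.740 FPKM in control (log2 change -1.13, adjusted p = 3.6e-07). None of these lists had a tested gene in PANC-1.

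Most receptors of the 9 chemokines were at or near 0 in both lines. The group means of CCR1, CCR2, CCR3, CCR6, CXCR3 and CXCR6 were at most 0.0259 FPKM. CCR4, the receptor of CCL22, averaged 0.287 FPKM with gemcitabine and 0.0108 FPKM in control BxPC3. CCR10, a receptor of CCL28, averaged 0.154 FPKM in BxPC3 with gemcitabine and 0.154 FPKM in control, and 0.380 FPKM in PANC-1 with gemcitabine and 0.953 FPKM in control. CX3CR1 averaged 0.0603 FPKM with gemcitabine and 0.114 FPKM in control PANC-1. Of the 18 listed receptors ACKR3 and CCRL2 passed the filter, in BxPC3. ACKR3, a scavenging receptor for CXCL11, fell to 2.83 ± 0.232 FPKM with gemcitabine, against 14.9 ± 0.858 FPKM in control (log2 change -2.06, adjusted p = 1.1e-09). CCRL2, an atypical receptor that passes no signal of its own, rose by 0.73 (log2, adjusted p = 9.6e-06), and it passed the filter only through the gemcitabine libraries.

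Genes that shed or trim chemokines were read next. In BxPC3 ADAM10 fell by 0.61 (log2, adjusted p = 2.4e-07) to 16.5 FPKM with gemcitabine, against 25.6 FPKM in control, and TIMP3, an inhibitor of such proteases, fell by 0.90 (adjusted p = 6.8e-09). RHBDF2, which brings ADAM17 to the cell surface, rose by 0.18 (adjusted p = 0.0025), and the other 2 of the 5 tested genes of the list did not pass. In PANC-1 3 of the 6 tested genes were higher and none lower. ANPEP, an aminopeptidase that trims chemokines, rose by 0.77 (adjusted p = 0.00054), RHBDF1 by 0.75 (adjusted p = 0.0022) and ADAM17 by 0.27 (adjusted p = 0.0149). The count was 4 without the first gemcitabine replicate, where ADAM10 was higher by 0.36 (adjusted p = 1.5e-05), and 2 with the replicate block. Over all genes tested in PANC-1 20.7% were called higher and 24.0% lower. Without that replicate 4102 of 12508 genes were called higher and 4626 lower, and with the block 2175 and 2464. The changes without that replicate were 0.65 for ANPEP, 0.60 for RHBDF1 and 0.33 for ADAM17.

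Of 14 tested NF-kB genes in BxPC3 7 were higher and 5 lower, with a median log2 change of 0.0696, against 0.00443 over all genes, of which 37.3% were called higher and 36.1% lower. TNFAIP3, which encodes the feedback inhibitor A20, rose by 1.39 (adjusted p = 2.4e-09) to 28.4 ± 1.38 FPKM with gemcitabine, against 10.2 ± 0.347 FPKM in control. The adaptor TRAF1 rose by 1.02, the cytokine TNF by 0.95, the nuclear cofactor NFKBIZ by 0.57 and the kinase CHUK by 0.51. The 5 that fell included the inhibitor NFKBIA (-0.53), the subunit RELB and the kinase IKBKB, and TNF passed the filter only through the gemcitabine libraries. In PANC-1 5 of 13 were higher and none lower, with a median of 0.139, against -0.0244 over all genes. Of all 12508 genes tested there, 20.7% were called higher and 24.0% lower. TNFAIP3 rose by 0.67 (adjusted p = 2.4e-05), and NFKBIZ (0.53), NFKB2 (0.61), TRAF1 (0.34) and BIRC3 (0.65) rose as well, NFKBIZ passing the filter only through the gemcitabine libraries. Without the first gemcitabine replicate 7 were higher and 2 lower in PANC-1, where 4102 of 12508 genes were called higher and 4626 lower. The changes then were 0.66 for TNFAIP3, 0.56 for NFKBIZ, 0.45 for NFKB2, 0.28 for TRAF1 and 0.84 for BIRC3.

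Of 16 tested interferon genes in BxPC3 9 were higher and 5 lower, with a median log2 change of 0.171, beside the same 37.3% and 36.1% over all genes. DDX58, which encodes the RNA sensor RIG-I, rose by 1.40 (adjusted p = 1.1e-09), and IRF9, which binds DNA as part of the complex that acts on the interferon-stimulated response element, by 0.77. IRF9 passed the filter only through the gemcitabine libraries. TMEM173, which encodes the DNA-sensing adaptor STING, fell by 1.08 (adjusted p = 2.4e-09) and the receptor chain IFNGR2 by 0.64. In PANC-1 7 of 16 were higher and none lower, with a median of 0.213, where 20.7% of all genes were called higher and 24.0% lower. IFIH1, which encodes the RNA sensor MDA5, rose by 1.22 (adjusted p = 7.1e-07) to 8.19 ± 0.493 FPKM with gemcitabine, against 2.94 ± 0.0518 FPKM in control. IRF1 (0.36), IFNLR1 (0.36) and IFNGR2 (0.26) rose as well, IFNLR1 passing the filter only through the gemcitabine libraries. The count in PANC-1 was 10 higher and 3 lower without the first gemcitabine replicate, and 4 higher without the second control. Of all 12508 genes 4102 were called higher and 4626 lower without that replicate, and 2269 and 2523 without that control. The changes without that replicate were 1.25 for IFIH1, 0.33 for IRF1, 0.35 for IFNLR1 and 0.31 for IFNGR2.

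The genes whose pattern over the 16 libraries was most like each chemokine were taken from 12050 protein-coding genes by Pearson r of log2(FPKM + 1). Since the libraries form 4 groups that share a line and a treatment, r mainly compares group levels and is a description. For CCL2 they were TXNRD1, LSG1 and SOX9 (r 0.9976 to 0.9986), for CCL5 EZH2, FSTL1 and HNRNPAB (r 0.9733 to 0.9842) and for CCL28 CDH11, CDH5 and SPRR2E (r 0.9967 to 0.9975). CXCL10 was most like CDH5, CLIC5 and the interferon-induced gene IFI44L (r 0.9958 to 0.9966), and CXCL11 like TREML2, IL36G and FFAR2 (r 0.9976 to 0.9977). The genes most like CCL20 were ULBP2, NUP62CL and ADGRF4 (r 0.9927 to 0.9946), and those most like CCL22 were BHLHE40, ACP5 and PRKCD (r 0.9857 to 0.9869). CXCL16 was most like AIF1L, C16orf74 and AP1M2 (r 0.9982 to 0.9989), and CX3CL1 like TOX2, PCDHGC3 and RNF216 (r 0.9979 to 0.9989).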

How the data were processed

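Poly-A RNA-seq of BxPC3 and PANC-1 gave 16 libraries, grouped by the sample titles into 4 groups of 4. FPKM values per gene and library were deposited by the authors as 1 table per line, with each gene's length in bases as a further deposited column. Per the submitters' processing notes CASAVA and HISAT2 were used, at versions they do not give. Which program counted the reads, and whether by strand, is not given in the sources used here. The notes name a mouse build, yet all 58735 genes have the human identifiers and positions of GENCODE 29 on GRCh38, which is used for coordinates.

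FPKM times gene length gave whole multiples of 1 step per library for 100.0% of values (tolerance 0.02 reads), and so the reads per gene. Each line was fitted alone with limma 3.58.1 in R 4.3.3 with its trend and robust options, on log2(FPKM + 1). Genes had to reach 1 FPKM in 4 or more libraries. P-values were adjusted by Benjamini-Hochberg across every tested gene, at a threshold of 0.05. The interaction was fitted over the 16 libraries together. A fold divides mean FPKM by mean FPKM, and counting intervals are exact at 95%. Libraries of a group differed by at least 2.05 in chi-square per degree of freedom, so none is an identical copy of another. Resequencing of the same library with differences between runs cannot be told apart by this value. Tables were handled with pandas 2.3.3 and scipy 1.17.1, and figures drawn with matplotlib 3.10.9. The procedure was tested on simulated data that held no library shifted by GC content and no planted change in low genes. That test thus does not cover the first gemcitabine replicate of PANC-1 or the members below the filter.

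The members and gene lists were chosen with earlier results of these data known. Some genes of the lists are counted but not reported here by name. Named list genes are otherwise the 5 or fewer with the smallest adjusted p per list and line, and the receptors of the chemokines that passed. CXCL9, the neighbour of CXCL10, and the genes below the filter in the closing section and the NF-kB genes named as lower in BxPC3 were named after their values were seen. The list entry MB21D1 was matched to CGAS by its synonym. The settings varied were the pseudocount (0.1), the filter (none), the scaling (median-ratio), limma's options (without trend and robust), a block for the replicate number, and the libraries (each left out in turn). Limma-voom on recovered reads was added after the data were seen.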

Additional observations from a re-analysis of the deposited data

Results flagged for a closer look

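For 8 genes the effect of gemcitabine in BxPC3 differed from that in PANC-1 by the interaction test, each at an adjusted p under 0.05. The difference (BxPC3 minus PANC-1, log2) was 2.71 for CCL2, 2.16 for CCL5, -0.978 for CCL22, 2.97 for CCL28, 2.47 for CXCL10, 2.51 for CXCL11, 0.855 for CXCL16 and -0.648 for CX3CL1. For CXCL10 and CXCL11 the PANC-1 side rests on 15 reads or fewer per group. Both passed the filter only through BxPC3 with gemcitabine, and CCL22 only through the BxPC3 controls.

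In 4 groups of 4 libraries 1 library lay far from the other 3, measured as its gap to the nearest library over the range of the group. CCL28 in PANC-1 with gemcitabine had a ratio of 0.910: replicate 1 was at 1.01 FPKM and the others at 1.68 to 1.74 FPKM. CCL2 in PANC-1 controls had a ratio of 0.861, with replicate 4 at 66.8 FPKM and the others at 58.6 to 59.8 FPKM. CCL22 in PANC-1 controls had a ratio of 0.921, which is 2 reads against 1 in each of the others. CXCL10 in PANC-1 controls had a ratio of 1, which is 2 reads against 0. Chance marks about 1 group in 20 in this way, and 36 groups were examined, of which CXCL11 in PANC-1 controls holds no read and gives no ratio.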

How the results depend on the processing

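In 333 of 334 recomputed values of the 18 called member results, direction and call were as reported. The exception was the difference of CXCL11 with limma-voom (1.41, adjusted p = 0.0534). With no filter, and with limma-voom over all genes with a read, members called lower in BxPC3 numbered 2, and members called higher in PANC-1 numbered 4. Of all genes, these fits called 5245 and 5844 of 36939 lower in BxPC3, and 3349 and 4127 of 33218 higher in PANC-1. Leaving out 1 library at a time gave 1 to 2 members higher in PANC-1, and 4641 to 8728 genes called in PANC-1, the highest without gemcitabine replicate 1. Signs turned for 3 results that had no call. In PANC-1 without gemcitabine replicate 1, CCL2 was 0.0110 and CCL28 was 0.0012, the ends of ranges that start at -0.1046 and -0.1488 with 1 library left out. The difference of CCL20 was -1.19 with a pseudocount of 0.1, -2.441 with limma-voom and -2.434 with limma-voom over all genes, and -0.0828 to 0.114 with 1 library left out. The cause was not tested. Same-numbered libraries of a line did not clearly deviate together (r -0.333 to 0.181 in BxPC3 and -0.376 to 0.189 in PANC-1). Differently numbered libraries reached r of 0.445 in BxPC3 and 0.429 in PANC-1. With so few libraries, some far from the rest, these values cannot show whether the numbers pair them. With the replicate block 8553 genes were called in BxPC3, 4639 in PANC-1 and 6608 for the difference, and no member's call changed. The planned edgeR and DESeq2 fits were not run, and limma-voom on the recovered reads was used instead. Depth limits CXCL10 in PANC-1, with 5 reads with gemcitabine and 2 in control.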

Other observations

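Listed genes below the filter moved in both directions in limma-voom over all genes with a read. Of 41 such genes in each line 8 were higher and 4 lower in BxPC3, and 10 higher and 1 lower in PANC-1. Over all genes this fit called 6082 of 36939 higher and 5844 lower in BxPC3. In PANC-1 it called 4127 of 33218 higher and 3443 lower. These totals include the genes above the filter, so they are no like background for genes below it. Fitted on genes above the filter alone, limma-voom called 4595 of 12215 higher and 4442 lower in BxPC3. The same fit in PANC-1 called 2623 of 12508 higher and 3070 lower. In BxPC3 CCL3, a chemokine made by macrophages, held 37 reads with gemcitabine and 1 in control (adjusted p = 1.2e-07). CCR4, the receptor of CCL22 and CCL17, held 118 reads with gemcitabine and 5 in control BxPC3 (adjusted p = 5.9e-09). CCL26, an attractant of eosinophils, held 34 reads with gemcitabine and 10 in control BxPC3 (adjusted p = 0.0322), and 28 and 5 in PANC-1 (adjusted p = 0.0067). The 4 that were lower in BxPC3 were CCL24, another attractant of eosinophils, with 10 reads with gemcitabine and 39 in control (adjusted p = 0.0195), the receptor CCR9 with 0 and 11, the scavenging receptor ACKR4 with 50 and 125, and the lymphocyte chemokine XCL1 with 82 and 145. The gene that was lower in PANC-1 was CCR10, a receptor of CCL28, which held 102 reads with gemcitabine and 246 in control PANC-1 (adjusted p = 0.0024).

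Interferon transcripts were scarce. IFNL1, a type III interferon, held 44 reads with gemcitabine and 5 in control BxPC3 (adjusted p = 0.00060), and 38 with gemcitabine and 3 in control PANC-1 (adjusted p = 0.00022). IFNB1 held 3 reads with gemcitabine and 2 in control BxPC3, and 6 with gemcitabine and none in control PANC-1. In PANC-1 IFNE held 50 reads with gemcitabine and 4 in control, IFNL3 held 22 and 1, and IFNL2 held 19 and 3. Their limma-voom adjusted p was 0.00023, 0.00045 and 0.0093 in that order. In BxPC3 IFNE held no read, IFNL3 held 0 and 1, and IFNL2 held 3 and 2. TNF held 271 reads with gemcitabine and 32 in control BxPC3, and 6 with gemcitabine and none in control PANC-1. These genes were picked after their values were seen, so the values are a description.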
